A study of Arabidopsis thaliana with 2 samples.

Results

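The LFY locus was examined for binding sites of its own product. LEAFY (LFY) is the plant-specific transcription factor that gives young shoot meristems of Arabidopsis thaliana the identity of flowers. Intervals were taken from both deposited lists when they overlapped the annotated gene body of LFY (AT5G61850, protein-coding, chr5:24844248-24846989), the 5 kb upstream or the 3 kb downstream of it. This window, chr5:24839248-24849989, was 10742 bp long. It held 7 of the 27396 intervals of the series, namely 3 of the 4882 ampDAP intervals and 4 of the 22514 DAP intervals.

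Both lists come from DNA affinity purification sequencing, in which tagged recombinant protein made in vitro is incubated with naked genomic DNA and the retained fragments are sequenced. For ampDAP, genomic DNA of seedlings was copied by PCR before use, which removes cytosine methylation, and the label names no transgene. For DAP, sheared genomic DNA came directly from seedlings of a 35S::LFY line (CA26 #15) and kept its methylation. In both, the LFY protein carried a Myc epitope tag (5XMyC) and the seedlings were 2 weeks old and had grown in long days on Murashige and Skoog medium at 0.5 strength. There was 1 library of each, so every comparison below describes these libraries and no test between them was possible.

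The DNA source bears on this locus. 35S is a viral promoter that drives expression in most plant tissues, and the DAP plants carried LFY sequence in the transgene besides the native gene. The labels do not say which part of LFY the transgene holds or in how many copies. The files used here give positions only. In a DAP interval of the gene body, fragments of the transgene and of the native gene could not be told apart. The kind of DNA and the plant source differed together between the libraries.

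LFY binds DNA as a dimer and acts at the centre of the floral switch. Its expression rises when flowering signals reach the shoot tip, among them the FT and FD proteins, the MADS factors SOC1 and AGL24, SPL factors, and auxin acting through ARF5. TFL1 holds it back in the shoot meristem. LFY in turn activates AP1 and CAL, which strengthen the switch, and with partners such as UFO the floral organ genes AP3, PI and AG.

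Of the 7 intervals, 1 lay in the LFY gene body, and it was in the ampDAP list. It spanned chr5:24845943-24846342, and its whole 400 bp lay within the gene. Its midpoint was 1894 bp from the lower-coordinate end of LFY and 847 bp from the higher-coordinate end, at 69.1% of the gene length of 2742 bp. The DAP list held 0 intervals in the gene body. Its DNA came from the line with the LFY transgene, and an effect of the transgene on this count was not tested. The nearest DAP midpoint was 3422 bp from the midpoint of the ampDAP interval.

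The gene table used holds neither strands nor exons. LFY was taken as transcribed from the forward strand, from general knowledge of the gene, so that lower coordinates are upstream. Whether the site in the gene body lies in an exon or an intron was not analysed here. On the reverse strand, the same rule would keep the 3 ampDAP intervals and 3 of the 4 DAP intervals.

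On the upstream side, 1 ampDAP and 3 DAP intervals were listed. The ampDAP interval spanned chr5:24841939-24842338 and had exactly the same coordinates as a DAP interval. Its midpoint lay 2110 bp upstream of the LFY start. Among all 4591 ampDAP intervals with a DAP partner, 175 (3.81%) had midpoints 0 bp apart, and the median distance was 7 bp. The other DAP intervals, chr5:24840313-24840712 and chr5:24840922-24841321, had midpoints 3736 and 3127 bp upstream of LFY. The nearest ampDAP midpoint was 1626 bp from the first of these and 1017 bp from the second. The 2 intervals lay 609 bp apart, midpoint to midpoint.

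All of these upstream sites fell in the neighbouring gene. GUT1 (AT5G61840, also called IRX10-L, an enzyme gene of xylan synthesis in the cell wall) ends 2104 bp before LFY begins. GUT1 held 1 ampDAP and 3 DAP midpoints. The shared midpoint was only 5 bp inside the GUT1 end, and 195 bp of that interval reached into the space between the genes. That space held 0 ampDAP and 0 DAP midpoints. The stretch next to the LFY start therefore had no site centred in it in either list.

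On the downstream side, each list held 1 interval, and both lay in the next gene, AT5G61865, which begins after a space of 320 bp. The ampDAP interval was chr5:24849148-24849547, with its midpoint 2358 bp beyond the LFY end. The DAP interval was chr5:24849365-24849764, with its midpoint 2575 bp beyond it. They overlapped by 183 bp, but their midpoints were 217 bp apart. By the rule used here, midpoints within 200 bp, they were not partners. Across the series, 12 of the 291 ampDAP intervals without a partner (4.12%) had a DAP midpoint 201 to 399 bp away, which means that they overlapped a DAP interval all the same.

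**Figure D1:**
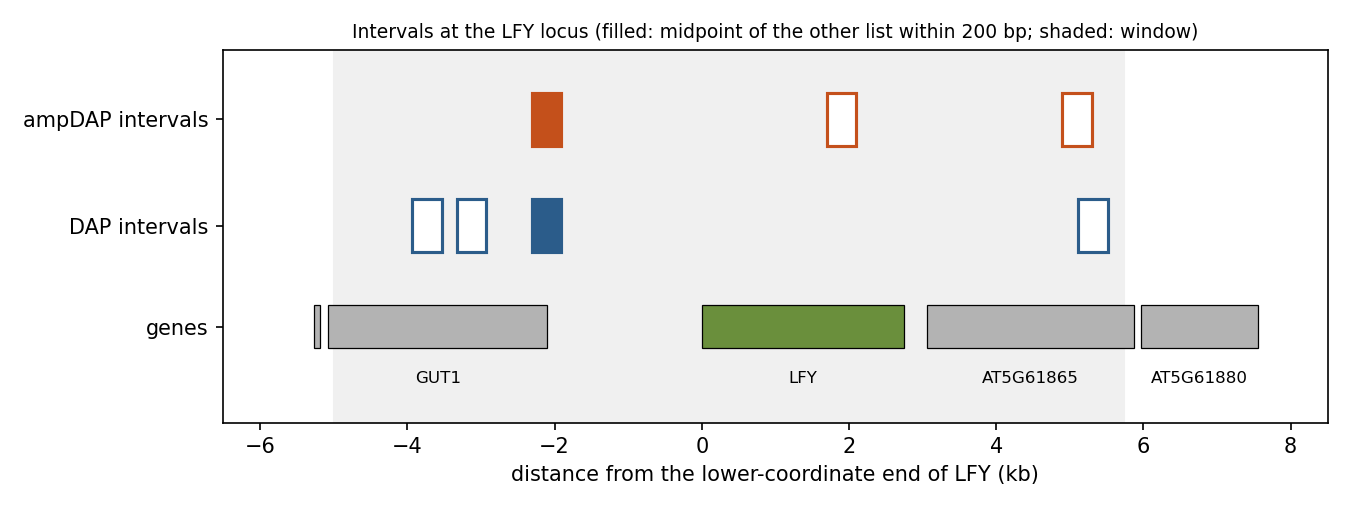
Intervals of the ampDAP list (top) and the DAP list (middle) at the LFY locus, drawn to scale as 400 bp boxes above the annotated genes, against the distance in kb from the lower-coordinate end of LFY. Filled boxes have a midpoint of the other list within 200 bp, open boxes do not, and the shading marks the window. The box over LFY is in the ampDAP list, and the filled pair stands at the end of GUT1.

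Just outside the window, the next ampDAP intervals lay 27061 bp below its lower edge and 16336 bp above its upper edge. The next DAP intervals lay 3882 bp below the lower edge and 6911 bp above the upper edge. Inside, the intervals nearest to the edges were both DAP intervals. The lowest began 1065 bp inside the lower edge, and the highest ended 225 bp inside the upper edge. All 7 members also had their midpoints in the window.

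By midpoint distance, 1 of the 3 ampDAP intervals at LFY had a DAP partner, and 1 of the 4 DAP intervals had an ampDAP partner. Across the series, 94.0% of ampDAP intervals and 20.4% of DAP intervals had a partner. With any overlap as the rule, which adds the downstream pair, 2 of the 3 ampDAP and 2 of the 4 DAP intervals at LFY had a partner, against 94.3% and 22.0% across the series. With so few intervals at LFY, these shares are descriptions.

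Partners were counted around LFY as well. Within 100 kb on each side of the window, all 8 ampDAP intervals had a DAP partner. With 1 Mb on each side, 4 of 92 ampDAP intervals had none. The next ampDAP interval without a partner lay 304447 bp before the site in the LFY gene body on one side and 634433 bp after the downstream site on the other. The 2 intervals at LFY without a midpoint of the other list within 200 bp were 3205 bp apart. Of 286 consecutive pairs of unpartnered ampDAP intervals in the series, 11 (3.85%), with the LFY pair among them, were at most that far apart. The median was 209764 bp. The LFY pair exists only under the 200 bp rule, since its downstream interval overlapped a DAP interval by 183 bp.

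**Figure D2:**
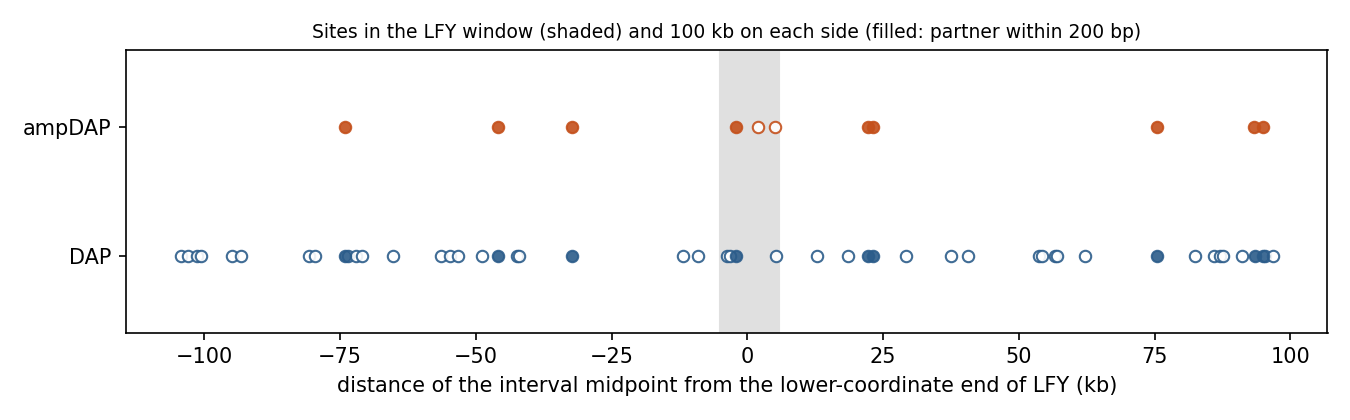
Midpoints of ampDAP intervals (top row) and DAP intervals (bottom row) in the LFY window, shaded, and in 100 kb on each side, against the distance in kb from the lower-coordinate end of LFY. Filled points have a midpoint of the other list within 200 bp. Outside the shading, all 8 ampDAP points are filled, and inside it 1 of 3 is filled.

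The density of sites at LFY was set against its surroundings. The window held 3 ampDAP midpoints, or 0.279 per kb (95% exact Poisson interval 0.0576 to 0.816). The surrounding 200 kb held 8, or 0.04 per kb (0.0173 to 0.0788). The ratio was 6.98, with an exact conditional interval of 1.19 to 29.1. The interval included 1 when the window was kept in the surroundings (ratio 5.08, 0.91 to 19.2) and with 3 kb upstream and 1 kb downstream (ratio 6.59, 0.693 to 31.8). With the window kept in, its own sites are in both counts, which draws the ratio towards 1. The exact interval assumes separate counts. In the DAP list the window held 4 midpoints, or 0.372 per kb (0.101 to 0.953), and the surroundings held 45, or 0.225 per kb (0.164 to 0.301). That ratio was 1.65 (0.432 to 4.54), an interval that includes 1, and with 3 kb upstream and 1 kb downstream it was 0.631 (0.0157 to 3.69). These intervals cover counting error only, treat sites as independent and say nothing of how another library would vary. The difference between the ampDAP and DAP ratios was not tested.

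The spread within the surroundings was seen in 18 adjoining stretches of the same length as the window, 9 on each side. They held 0 to 2 ampDAP midpoints, and 12 of them held 0, so none reached the 3 of the LFY window. They held 0 to 5 DAP midpoints with a median of 2. There, 6 stretches had at least the 4 of the LFY window and 2 had more. The LFY window held 2 ampDAP midpoints without a DAP partner, and the 18 stretches held 0. Counting only intervals that overlapped no DAP interval, the LFY window held 1 and the stretches 0. The surrounding 200 kb, in which the stretches lie, held only 8 ampDAP midpoints. Across the series, 94.0% of ampDAP intervals had a partner, so a count of 0 among so few says little about the stretches.

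The DAP list was empty between the shared site at the GUT1 end and the downstream site, a gap of 7426 bp that contains the whole LFY gene. Such a gap is common. Of the 22509 distances between neighbouring DAP midpoints, 4851 (21.6%) were at least as long, against a median of 3120 bp. A gene falls more readily in a long gap than in a short one, so 21.6% is not a share of genes. A DAP midpoint lay in the gene body of 43.4% of protein-coding genes. In the ampDAP list the same stretch was divided by the site in the gene body, 4004 bp from the shared site and 3205 bp from the downstream one.

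To set LFY against other genes, the same kind of window was placed on each of 27444 protein-coding genes, with 5 kb on the lower-coordinate side and 3 kb on the higher side, because strands are not in the table. At least 1 interval was present for 38.1% of genes in the ampDAP list and for 87.3% in the DAP list. At least 3 ampDAP intervals, the number at LFY, were found for 446 genes (1.63%). At least 4 DAP intervals, the number at LFY, were found for 6304 genes (23.0%). LFY therefore stood high among genes by the ampDAP count of its window, while its DAP count was one that many genes had. Only 1 of the 3 ampDAP intervals lay in the LFY gene body, and the others lay in neighbouring genes. Windows of neighbouring genes overlap, so an interval can count for more than 1 of the 446 genes. The median gene had 0 ampDAP and 2 DAP intervals.

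**Figure D3:**
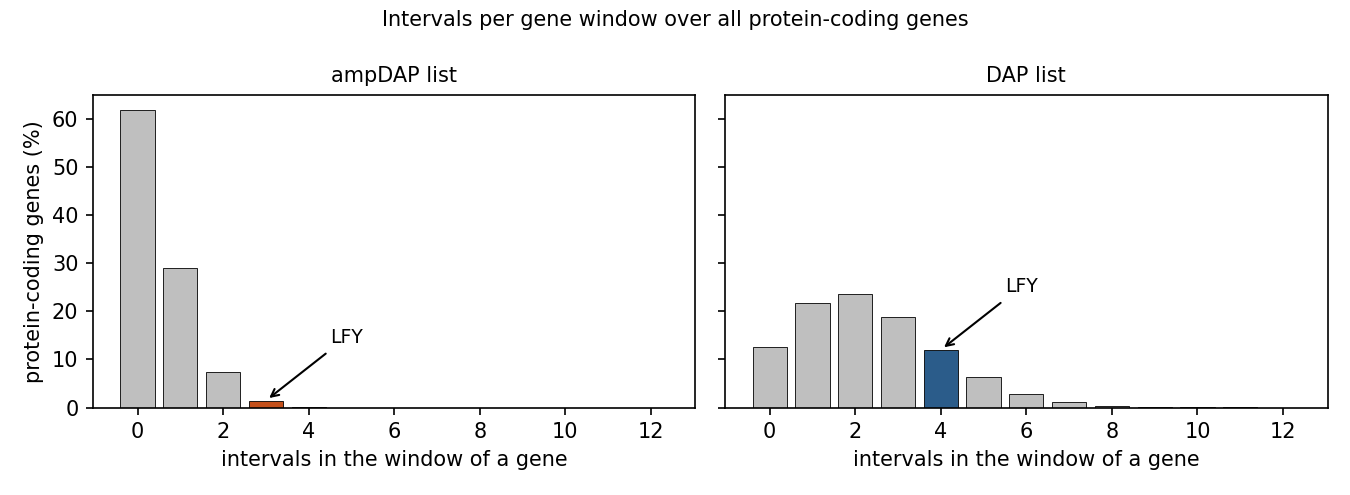
Percentage of protein-coding genes by the number of ampDAP intervals (left) and DAP intervals (right) in the window of the gene. The coloured bar holds LFY, at 3 ampDAP intervals, a number found for 397 genes, and at 4 DAP intervals, a number found for 3283 genes.

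The site in the LFY gene body belonged to a small class, which was defined by the pattern seen at LFY. An ampDAP midpoint lay in the gene body of 3124 protein-coding genes (11.4%), and a DAP midpoint in that of 43.4%. An ampDAP midpoint with no DAP midpoint in the same gene body, as at LFY, occurred in 39 of these 3124 genes (0.142% of all protein-coding genes). A gene body held an ampDAP midpoint without a DAP partner in 64 genes (0.233%). Of the 291 unpartnered ampDAP intervals, 22.0% had the midpoint in a protein-coding gene, against 71.1% of the partnered ones. Outside the gene body but within 2 kb of either end, LFY had 0 ampDAP and 0 DAP midpoints. The midpoint shared by both lists lay just beyond this limit, 2110 bp from the LFY start. At least 1 such midpoint was found for 15.8% of genes in the ampDAP list and 54.2% in the DAP list.

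At least 1 unpartnered ampDAP interval was in the window of 469 genes (1.71%), and at least 2, as at LFY, in that of 21 genes (0.0765%). Windows of neighbouring genes overlap, and these 21 genes made up 12 separate loci. The class rests on the downstream pair that misses the partner rule. When an ampDAP interval was counted only if it overlapped no DAP interval, LFY had 1, and at least 1 was found for 453 genes (1.65%). The LFY locus gave 3 of the genes, LFY itself, AT5G61865 and AT5G61880, through the same pair of intervals. By the midpoint rule for partners, no other protein-coding gene had the same numbers of ampDAP, DAP and shared intervals as LFY. The same 3 ampDAP and 4 DAP intervals were found for 103 other genes. Of these, 90 had 3 shared DAP intervals and 13 had 2, against 1 at LFY. This difference also rests on the downstream pair. With any overlap as the partner rule, LFY had 2 shared DAP intervals. The shared intervals of the 103 genes are given by the midpoint rule only. By that rule, no gene could be named as alike by the position of its sites.

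Genes that act with LFY in the floral switch were examined in the same window. The list held 27 genes: regulators of LFY, and its partners and targets, with AP1, CAL, FUL and TFL1 in both roles. An ampDAP interval was present at 17 of the 27, against 38.1% of all genes, and a DAP interval at 27 of the 27, against 87.3%. The median was 1 ampDAP and 3 DAP intervals per gene, against 0 and 2 over all genes. Among the 16 regulators, 9 had an ampDAP interval and 16 a DAP interval. Among the 15 partners and targets, 11 had an ampDAP interval and 15 a DAP interval. Several of these genes are textbook targets of LFY, so their presence is no independent finding.

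In the ampDAP list, 1 of the 27 genes had at least as many intervals as LFY, against 1.63% of all protein-coding genes. The gene was ARF5, an auxin response factor that activates LFY, with 3 ampDAP and 6 DAP intervals. In the DAP list, 9 of the 27 genes had at least the 4 intervals of LFY, against 23.0% of all protein-coding genes. Besides ARF5, these were SEP3 and PI, MADS genes of floral organ identity, with 5 DAP intervals each. AP1 and AG, the meristem identity and carpel genes, had 4 each, as did FD, the partner of FT, and the meristem gene STM. The growth regulator AIL6 and SPL3, which promotes flowering with age, also had 4 DAP intervals each. Their ampDAP counts were 2 for SEP3, AP1, FD and STM, 1 for PI, AG and AIL6, and 0 for SPL3.

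Partners were also counted in the list. Counted over the 27 genes there were 25 ampDAP intervals, and all 25 had a DAP partner, as 94.0% did across the series. At LFY, 2 of 3 had none within 200 bp, and 1 of 3 overlapped no DAP interval. In 0 of the 27 genes did the gene body hold an ampDAP midpoint and no DAP midpoint. Over all protein-coding genes 0.142% had this pattern, so 0 of 27 says little. These are counts over 1 library of each kind, with no test.

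**Figure D4:**
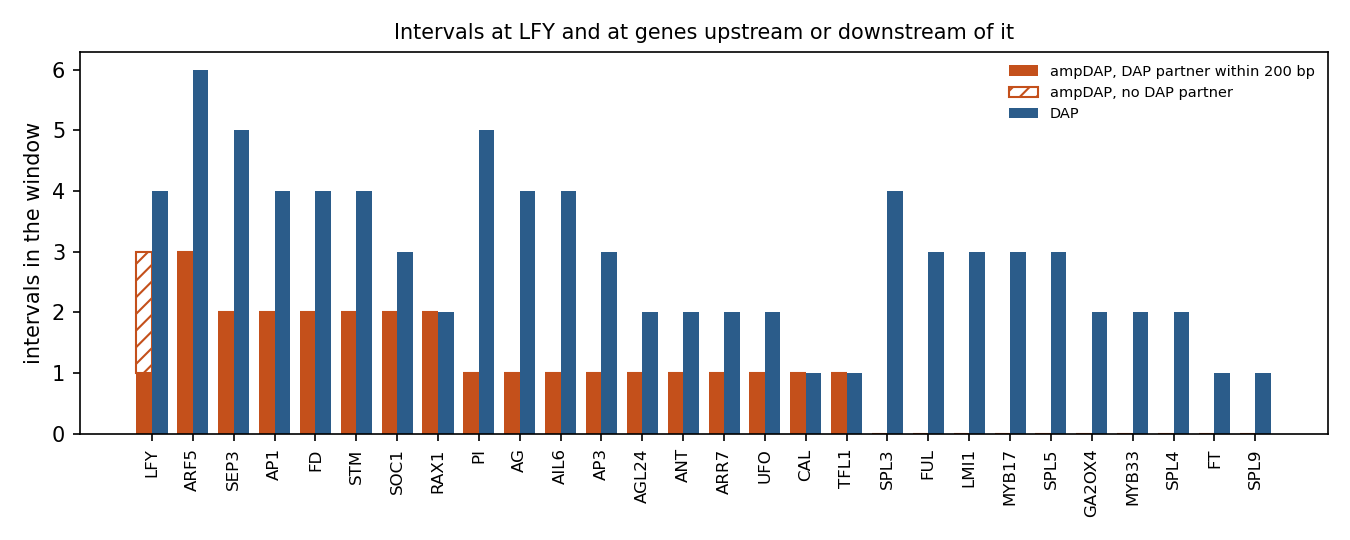
Number of ampDAP intervals (left bar of each pair) and DAP intervals (right bar) in the window of LFY and of 27 genes that regulate LFY or act with or below it. The hatched part counts ampDAP intervals without a DAP midpoint within 200 bp, 2 at LFY and 0 at the other genes.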

How the data were processed

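The deposited files give each peak of 1 library per kind of DNA as chromosome, start and end, with no score, fold or p-value. All intervals are 400 bp wide. Per the submitters' processing notes, Bowtie2, SAMtools and MACS2 were used with the TAIR10 build. Versions, control, threshold and pooling are not given in the sources used here, and depth is unknown. Differences between the lists can therefore also come from depth or threshold.

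Gene positions came from RefSeq's table of TAIR10.1, whose nuclear chromosomes have the TAIR10 sequence. As a check, 76.1% of DAP midpoints fell in protein-coding genes, against 72.8% after moving them 500 bp either way. For ampDAP the share was 68.1%, against 66.3% and 67.2%.

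Python 3.11.15, numpy 2.4.6, pandas 2.3.3 and scipy 1.17.1 were used. Intervals are counted from 1. A member overlaps the window by at least 1 bp, and densities count midpoints. Partners have midpoints within 200 bp. Counting and partner rules were tested on simulated data. The genes, lists and rules were chosen with earlier results of these data known. Genes were named when they overlapped the window of LFY, were the nearest beyond it on either side or, in the pathway list, had at least its number of DAP intervals. Alternatives changed the window, the overlap and partner rules, the surroundings and the gene set. Sequence was not used, so motifs were not analysed here.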

Additional observations from a re-analysis of the deposited data

How the results depend on the processing

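Of 43 recomputed values, 33 kept their direction and lay inside the main 95% interval (for counts, within 1.5 times), 9 moved further and 1 changed direction. The 33 include the partner counts at 100, 50 and 20 bp. These could not change, since the midpoints of the only partnered pair lay 0 bp apart. With the gene body alone, the count at LFY was 1 for ampDAP (3 reported) and 0 for DAP (4 reported). With 3 kb upstream and 1 kb downstream, the DAP count was 2 by overlap. Only 1 DAP midpoint lay in that window, and the DAP density ratio, which counts midpoints, was 0.631 in place of 1.65. With an overlap of 1 bp as the partner rule, 2 ampDAP and 2 DAP intervals at LFY had a partner, in place of 1 each. The ampDAP density ratio stayed between 5.08 and 7.45, and its interval included 1 under 2 alternatives given with the result. The percentages of all genes with an interval were 26.5% for ampDAP and 74.7% for DAP in the smaller window, and 35.0% and 81.4% over all genes of the table. The reverse strand gave 3 ampDAP and 3 DAP intervals. This, mirrored gene windows and the count of genes by ampDAP intervals that overlap no DAP interval were added after the data had been seen. No paired analysis was possible because there was a single library of each, and no replicate could be left out. Motif alternatives were not run, and no stricter threshold could be set, since the intervals carry no strength. With unknown depth, a missing interval does not show absence of binding.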
